A study of Mus musculus with 15 samples.

Results

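The genes of de novo fatty acid synthesis were examined in the mouse gastrocnemius, a calf muscle in which fast fibers predominate. They comprised Acly, Acaca, Acacb, Fasn, Scd1, Scd2, Elovl6, Srebf1, Me1 and Thrsp, which are 10 of the 12393 genes named on the array. All 20 probe sets that the platform annotation gives to these genes were taken, out of 22690 probe sets on the array. The genes were chosen by the rise of Acly in calorie-restricted old mice against old controls, so in that comparison the values, and the counts of probe sets past the threshold, are a description and no p-value is given. Transcript levels were measured in 5 old mice on caloric restriction (old CR, 25 months), 5 old mice on normal diet (old, 25 months) and 5 young mice on normal diet (young, 5 months). All were individually housed male C57BL/6NHsd mice. Normal diet supplied 84 kcal per week, an amount already below what such mice eat freely, and the CR diet gave a 26% difference in calories and was enriched so that protein, vitamins and minerals were nearly matched. Each mouse was measured on 1 MOE430A array with poly(A) RNA of the whole muscle. In such bulk RNA, fewer cells of a type and less RNA per cell cannot be told apart.

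Fatty acids are built from acetyl-CoA in the cytosol. ATP citrate lyase (Acly) cleaves citrate exported from mitochondria to make that acetyl-CoA, acetyl-CoA carboxylases (Acaca and Acacb) turn it into malonyl-CoA, and fatty acid synthase (Fasn) joins these units into palmitate with NADPH, which malic enzyme (Me1) helps to supply. Elovl6 lengthens palmitate, the stearoyl-CoA desaturases (Scd1 and Scd2) put in a double bond, and Srebf1 and Thrsp act on the pathway as a transcription factor and as a lipogenic protein that associates with it. The pathway is best known from liver and adipose tissue. In muscle, malonyl-CoA made by Acacb is also known as an inhibitor of fatty acid entry into mitochondria.

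The promoter windows of Acly, Fasn, Thrsp and Me1 are shown as examples. By brightest probe set, the first 3 of these genes had lower mean levels in old mice than in both other groups. So did Acaca, Elovl6 and Srebf1, whose windows are not shown, and Scd1 and Scd2, for which no window was found. The Me1 mean was highest in old mice, as was that of Acacb. Each window shown is the run of 250 bases before the annotated transcription start, 5′ to 3′ on the gene's own strand, from RefSeq (GRCm38.p6). CCAAT boxes (CCAAT) and GC boxes (GGGCGG) are in capitals on either strand. All 4 genes lie on the minus strand, Acly at chr11:100528001-100528250, Fasn at chr11:120824548-120824797, Thrsp at chr7:97417551-97417800 and Me1 at chr9:86695915-86696164.
Acly: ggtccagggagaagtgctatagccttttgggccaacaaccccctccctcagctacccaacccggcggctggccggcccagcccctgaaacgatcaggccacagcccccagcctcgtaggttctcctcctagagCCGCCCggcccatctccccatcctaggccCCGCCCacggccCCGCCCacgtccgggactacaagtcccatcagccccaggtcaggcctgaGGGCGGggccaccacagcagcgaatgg
Fasn: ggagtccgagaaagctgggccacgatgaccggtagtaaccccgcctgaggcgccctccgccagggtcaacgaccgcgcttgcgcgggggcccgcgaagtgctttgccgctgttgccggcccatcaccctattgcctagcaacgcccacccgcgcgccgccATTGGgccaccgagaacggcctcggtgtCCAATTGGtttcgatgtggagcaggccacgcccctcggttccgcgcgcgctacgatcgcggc
Thrsp: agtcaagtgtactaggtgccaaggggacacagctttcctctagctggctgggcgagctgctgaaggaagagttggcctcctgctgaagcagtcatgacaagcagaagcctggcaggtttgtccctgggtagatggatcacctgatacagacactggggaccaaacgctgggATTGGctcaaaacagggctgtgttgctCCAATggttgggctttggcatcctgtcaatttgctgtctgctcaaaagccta
Me1: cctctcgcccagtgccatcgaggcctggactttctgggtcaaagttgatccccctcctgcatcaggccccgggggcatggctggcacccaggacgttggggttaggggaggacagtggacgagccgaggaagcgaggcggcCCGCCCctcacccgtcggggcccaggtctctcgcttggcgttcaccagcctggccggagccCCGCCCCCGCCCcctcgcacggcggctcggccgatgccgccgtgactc
The Fasn window held CCAAT boxes at -90, -62 and -59, counted from -1 at the base before the start, and the last pair overlapped on opposite strands. Thrsp held CCAAT boxes at -79 and -52 and no GC box. Acly held GC boxes at -117, -88, -76 and -27, and Me1 at -109, -48 and -42, and neither of these windows held a CCAAT box. Me1 has a further annotated start, at chr9:86687278-86687527, whose window is not shown and held a CCAAT box at -208 and no GC box. Of the other genes not shown, Acaca and Elovl6 held neither motif and Acacb held a CCAAT box at -87. The windows of Srebf1 held both motifs. Promoter windows were found for 8 of the 10 genes, 11 windows in all. The sterol regulatory element that SREBP proteins bind (searched as TCACNCCAC) was in none of the 11 windows, against 1.05% of 32851 mouse windows, and the E-box CACGTG was also in none, against 6.02%. A CCAAT box was in 6 windows of 5 genes, against 33.8% of all windows, and a GC box in 4 windows of 3 genes, against 32.7%. These letters describe the windows only.

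Values are linear intensities, scaled to the same trimmed mean on every array. Differences are on the log2 scale and come from limma with the 3 groups in 1 fit. Adjusted p-values (Benjamini-Hochberg) refer to all 22626 probe sets tested, and a probe set was called at an adjusted p under 0.05. The intensities of different probe sets are not comparable as amounts, because each has its own probes.

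Array medians ranged from 200.6 to 243.5. The array of young mouse 3 stood apart from its group. Over the 11313 brighter probe sets its mean correlation was 0.9425 with the old arrays and 0.9171 with the other young arrays. The log2 ratio of 3′ to 5′ signal, averaged over the control probe sets for Gapdh and Actb and used here as a measure of RNA integrity and labeling, was -0.42 to -0.21 in old CR, 0.05 to 0.27 in old and -0.28 to 0.06 in young mice, with young mouse 3 at the top of the young range. The old arrays overlapped neither the old CR arrays nor the other young arrays in this measure, and only young mouse 3 lay within the old range. Age or diet and this ratio can therefore not be told apart. A fit that holds the ratio as a covariate is given below but cannot separate them. The part of the ratio in the differences given below was not tested further. The 10 skeletal muscle markers were all measured, with summed intensities of 213860 to 296020 in old CR, 189200 to 247680 in old and 225880 to 268530 in young mice. The 3 comparisons share groups, so they are not independent of each other.

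**Figure D1:**
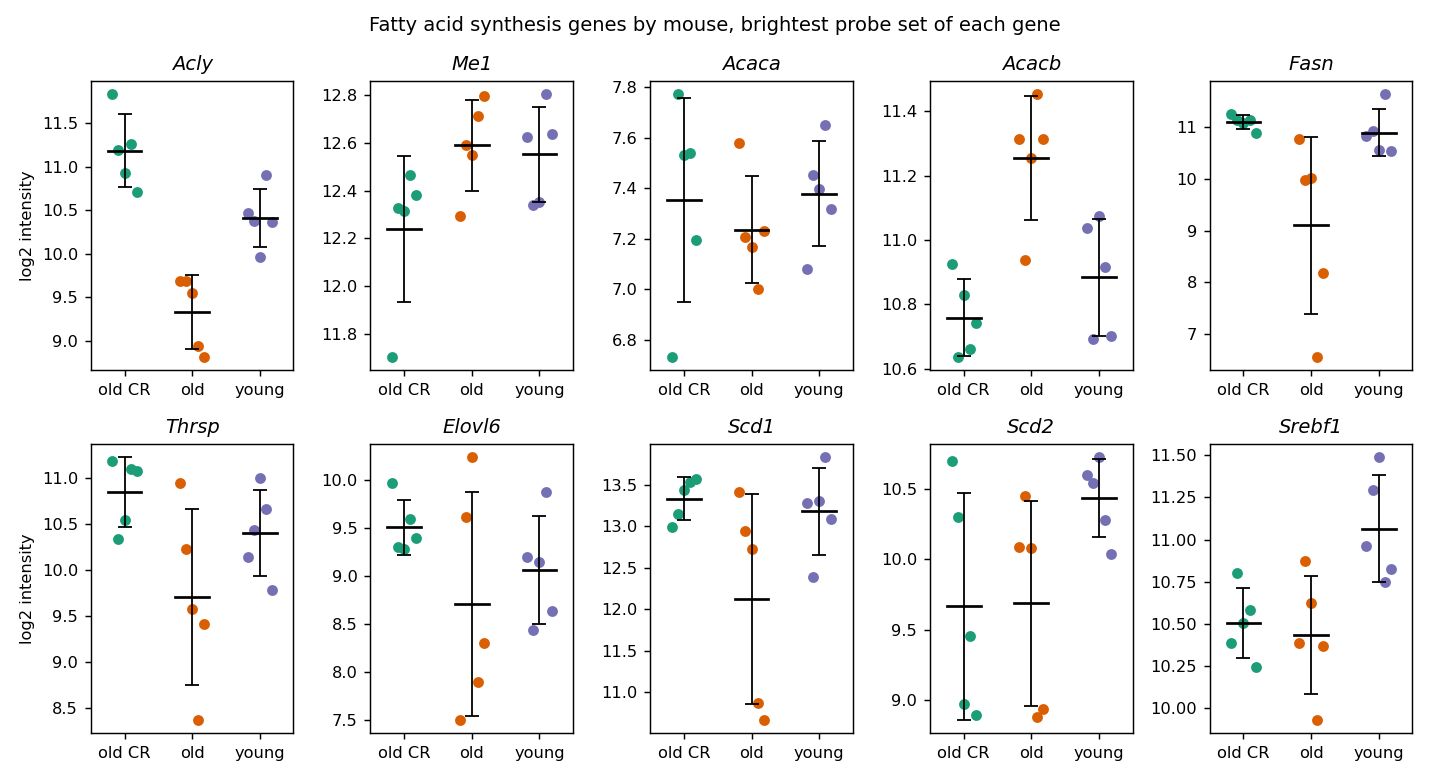
Log2 intensity (y axis, a separate range in each panel) of the brightest probe set of each gene in old CR, old and young mice; points are mice, bars the mean and SD of 5 mice. Acly shows 3 separated levels except for an overlap of the lowest old CR mouse with the highest young mouse, and Fasn and Scd1 are spread most widely in old mice.

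Acly transcript levels were lowest in old mice. The brightest of its 5 probe sets, 1451666_at, read 3649, 2339, 1943, 2456 and 1681 in old CR mice 2, 3, 5, 6 and 7, against 821.5, 824.5, 752.0, 491.8 and 450.1 in old mice 1 to 5. The young mice 1 to 5 read 1412, 1328, 1001, 1915 and 1323. Every old mouse lay below every mouse of the other groups, and the old CR and young mice overlapped. The means were 2413.9 ± 757 in old CR, 667.97 ± 182.8 in old and 1396.1 ± 330 in young mice (SD, n = 5 each), so the old CR mean was 3.61 times the old mean. Old mice differed from young mice by -1.08 (SE 0.24), which did not pass the threshold (adjusted p = 0.073, limma). Old CR mice differed from young mice by 0.77 (SE 0.24, adjusted p = 0.221).

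A further Acly probe set, 1425326_at, was called between old and young mice. It read 891.3, 688.7, 620.9, 863.3 and 755.5 in old CR mice, against 81.65, 178.6, 207.4, 145.4 and 114.0 in old mice. In young mice it read 545.2, 618.4, 255.6, 745.6 and 596.4. The old mice were again below all others, with young mouse 3 the lowest outside the old group. Acly by this probe set fell by 1.92 on the log2 scale in old mice compared with young mice (SE 0.29, adjusted p = 0.0236, limma, lower in 5 of 5 old mice). The call was lost without young mouse 1, 2, 4 or 5 or without old mouse 4, each left out alone, where the adjusted p was 0.0549 to 0.0839. Without young mouse 3, the array that stands apart, the difference was -2.17 and the adjusted p 0.000302. With the 3′ to 5′ ratio held as a covariate it was -0.97 (SE 0.38, adjusted p = 0.683). The old CR against young difference was 0.54 (SE 0.29, adjusted p = 0.49), and the old CR against old difference 2.46.

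The remaining Acly probe sets did not add a call. Probe set 1439459_x_at, whose suffix marks probes that may also bind other transcripts, averaged 1342 ± 468.5 in old CR, 459.57 ± 133.7 in old and 722.08 ± 173.2 in young mice (SD, n = 5 each). Its old against young difference was -0.67 (SE 0.26, adjusted p = 0.236) and its old CR against young difference 0.85 (SE 0.26, adjusted p = 0.212). The other two, 1439445_x_at and 1438389_x_at, averaged between 21.6 and 38.0 in every group, at percentile 9.9 of the mean intensity of all probe sets, and are too dim to read a level from. In the other 3 Acly probe sets the old mean was below both other means.

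Me1, the cytosolic malic enzyme, had its lowest mean levels in old CR mice. Probe set 1416632_at read 1671, 2527, 2346, 3090 and 2526 in old CR mice, against 4138, 5286, 4732, 3635 and 4454 in old mice. Young mice read 3434, 2879, 4985, 3891 and 2523. All old CR mice were below all old mice, while the young mice spanned most of both ranges. Old mice differed from young mice by 0.36 (SE 0.20, adjusted p = 0.411) and old CR from young mice by -0.53 (SE 0.20, adjusted p = 0.299). The brighter probe set, 1430307_a_at, averaged 4911.1 ± 910.5 in old CR, 6206.1 ± 797.5 in old and 6054 ± 837.6 in young mice (SD, n = 5 each), and all 3 groups overlapped.

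Both carboxylases make malonyl-CoA, in different places of the cell. Acaca, the cytosolic form that feeds fatty acid synthesis, averaged 168.45 ± 43.17 in old CR, 152.05 ± 23.43 in old and 167.75 ± 23.67 in young mice (SD, n = 5 each). Its old against young difference was -0.14 (SE 0.19, adjusted p = 0.76). Acacb, the form at the mitochondrial surface, read 1946, 1592, 1819, 1620 and 1715 in old CR mice, against 2546, 1961, 2446, 2804 and 2548 in old mice. In young mice Acacb read 2103, 1654, 2155, 1931 and 1665. Old CR mice were all below the old mice, by a narrow margin between old CR mouse 2 and old mouse 2. The old against young difference of Acacb was 0.37 (SE 0.13, adjusted p = 0.182) and the old CR against young difference -0.12 (SE 0.13, adjusted p = 0.757).

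Fasn, the synthase itself, varied far more among old mice than in the other groups. It read 2430, 2231, 2141, 2235 and 1876 in old CR mice, against 1741, 1006, 1032, 94.41 and 290.6 in old mice. Young mice read 1804, 1936, 1495, 3168 and 1486. The old CR mice were all above the old mice, but old mouse 1 lay inside the young range while old mice 4 and 5 were far below it. The highest value was 1.3 times the lowest in old CR, 18.4 times in old and 2.13 times in young mice. Old mice differed from young mice by -1.79 (SE 0.60), which did not pass the threshold (adjusted p = 0.17), and by -1.16 without old mouse 4. Old CR differed from young mice by 0.20 (SE 0.60, adjusted p = 0.933).

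Thrsp, also known as Spot 14, is strongly expressed in lipogenic tissues. Its probe set 1424737_at read 2339, 1299, 1499, 2194 and 2169 in old CR mice, against 1973, 1202, 768.1, 332.2 and 685.0 in old mice. Young mice read 1133, 1384, 2057, 1624 and 883.4. Old mouse 4 was again the lowest of all, and old mouse 1 was above the group means of old and young mice. The differences were -0.70 for old against young (SE 0.39, adjusted p = 0.414; -0.36 without old mouse 4 and -1.42 with the 3′ to 5′ covariate) and 0.45 for old CR against young (SE 0.39, adjusted p = 0.708). The second probe set, 1422973_a_at, averaged 760.99 ± 166.1 in old CR, 381.22 ± 179.8 in old and 697.48 ± 105.5 in young mice (SD, n = 5 each), and its old against young difference was -1.01 (SE 0.30, adjusted p = 0.133).

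Elovl6, which elongates palmitate to stearate, had no uniform level in old mice. Its brighter probe set, 1417404_at, ranged from 619.94 to 996.38 in old CR (median 673.94), from 181.18 to 1207.1 in old (median 316.05) and from 347.42 to 937.16 in young mice (median 566.23). Old mice thus held both the lowest and the highest Elovl6 values of the 15 mice. Here old mouse 3 was the highest and old mouse 1 the lowest, an order unlike that of Fasn. The old against young difference was -0.35 (SE 0.45, adjusted p = 0.756) and, for the dimmer probe set 1417403_at, -1.44 (SE 0.72, adjusted p = 0.359). The dimmer probe set read 25.71, 12.19 and 9.893 in old mice 1, 4 and 5, and with intensities raised to a floor of 50 its difference was -0.37.

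Scd1 is the main desaturase that makes oleate from stearate. Its brightest probe set, 1415964_at, read 8110, 9060, 11051, 11850 and 12195 in old CR mice, against 10933, 7859, 6785, 1871 and 1623 in old mice. Young mice read 9934, 5377, 10084, 14627 and 8681. Old mice 4 and 5 were low and the other old mice lay within the young range. The second Scd1 probe set, 1415965_at, read 1240, 2171, 2551, 1670 and 2836 in old CR mice, against 897.1, 605.1, 361.4, 94.76 and 87.41 in old mice, and 2290, 1252, 526.4, 7041 and 1736 in young mice. By this probe set young mouse 3 was inside the old range and the other young mice above it. The old against young differences were -1.05 (SE 0.48, adjusted p = 0.306) and -2.69 (SE 0.71, adjusted p = 0.103), and 1415965_at reached an adjusted p of 0.0217 without young mouse 3. Without old mouse 5 the difference of 1415964_at was -0.69. The old CR against young differences were 0.16 for each probe set (adjusted p = 0.933 for 1415964_at and 0.957 for 1415965_at).

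Scd2, a related desaturase, stood lower in both old groups on average than in young mice. Its 3 probe sets differed between old and young mice by -0.75, -1.14 and -1.38 (1415822_at, 1415823_at and 1415824_at, adjusted p = 0.37, 0.15 and 0.102), and between old CR and young mice by -0.77, -0.46 and -0.52 (adjusted p = 0.447, 0.664 and 0.619). None of these passed the threshold. The brightest, 1415822_at, read 1664, 1263, 502.2, 700.1 and 476.3 in old CR mice, against 1088, 1397, 1084, 471.4 and 488.9 in old mice and 1552, 1487, 1695, 1242 and 1049 in young mice. In each of the old groups some mice were near the young level and others well below it, so that, unlike Fasn and Scd1, Scd2 was uneven in old CR mice as well. Without young mouse 3 the probe sets 1415823_at and 1415824_at were called lower in old than in young mice (adjusted p = 0.0465 and 0.00306).

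Srebf1 encodes SREBP-1, the transcription factor best known for driving these genes in liver. It read 1338, 1787, 1455, 1535 and 1215 in old CR mice, against 1339, 1876, 1577, 976.9 and 1321 in old mice. Young mice read 1997, 2510, 2878, 1720 and 1819. The old CR and old mice covered about the same range, and 8 of these 10 mice lay below all young mice. The means were 1465.9 ± 216.1 in old CR, 1418 ± 333.6 in old and 2184.7 ± 492.6 in young mice (SD, n = 5 each). Old mice differed from young mice by -0.63 (SE 0.19, adjusted p = 0.137), and old CR from young mice by -0.56 (SE 0.19, adjusted p = 0.257). The group order of Srebf1 was not that of Acly or Fasn.

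**Figure D2:**
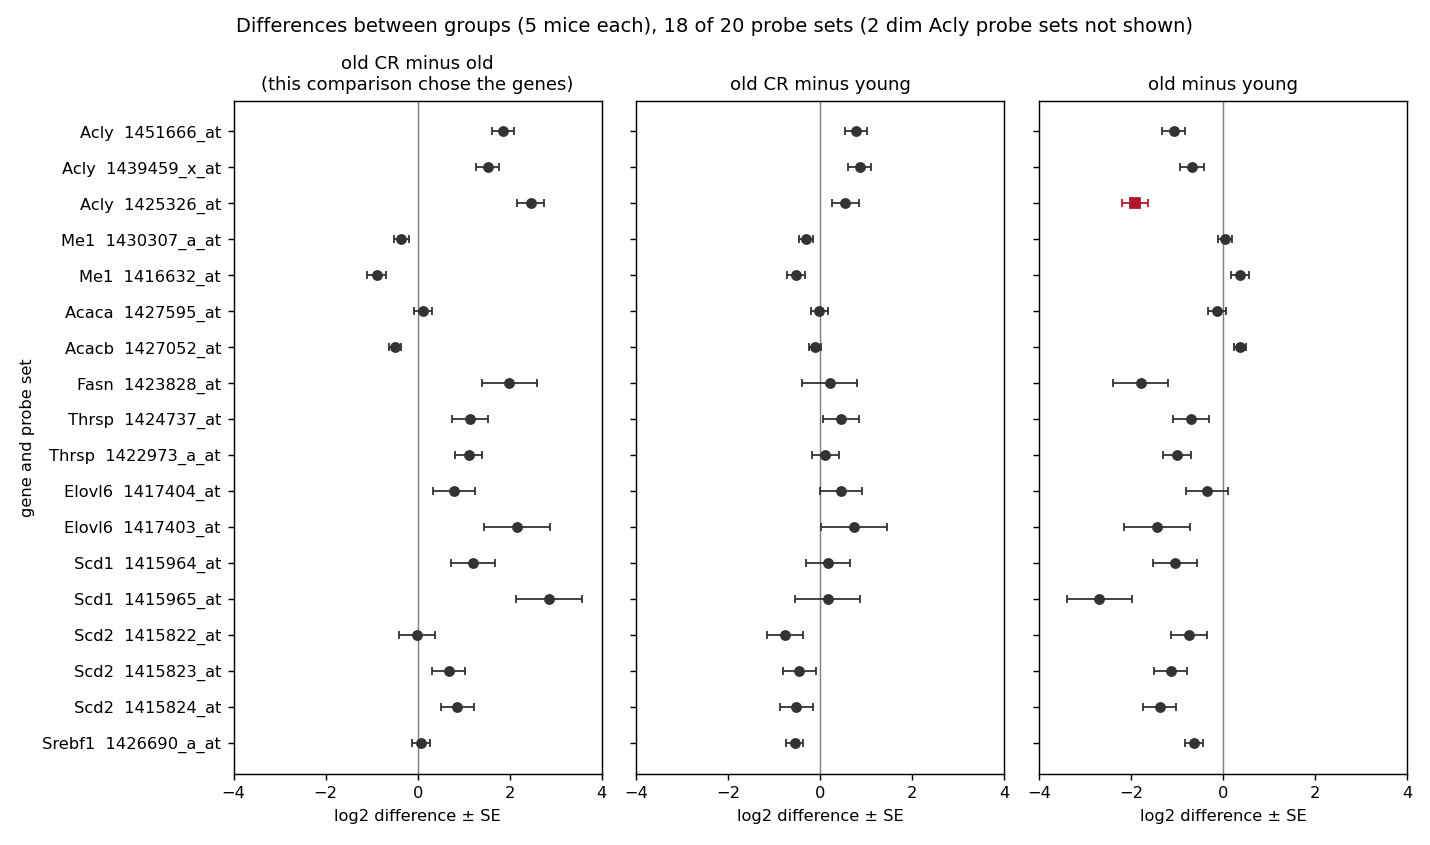
Log2 difference with its SE (x axis) for 18 of the 20 probe sets (rows) in old CR minus old, old CR minus young and old minus young, 5 mice per group; the square marks the only tested difference called, Acly 1425326_at at -1.92 in old minus young. Calls were not marked for old CR minus old, the comparison that chose the genes.

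Counted over the 20 probe sets, the old against young comparison held 1 call, which was lower in old mice, where 0.265% of all 22626 probe sets were called in either direction and 0.146% as lower. At an unadjusted p under 0.05 (limma) there were 11, of which 10 were lower and 1 higher, and 15.5% of all probe sets reached that level. Several of these probe sets measure the same gene, and the old mice were also part of the comparison that chose the genes. The means were lower in old mice for 16 of the 20, and the median difference was -0.72, against -0.06 over all probe sets. The groups did not overlap for 2 of the 20 probe sets, both of Acly, against 3.61% of all. Leaving out young mouse 3 gave 5 calls, all lower in old mice (Acly 1451666_at and 1425326_at, Scd1 1415965_at, Scd2 1415823_at and 1415824_at), while the share of all probe sets called lower was then 3.24%.

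Between old CR and young mice limma called none of the 20 probe sets, where 0.0884% of all probe sets were called. At an unadjusted p under 0.05 there were 4 (2 higher, both of Acly, and 2 lower, Srebf1 and Me1 1416632_at), and 12.1% of all probe sets reached that level. The median difference was 0.13, against -0.01 over all probe sets. In old CR against old mice, the comparison that chose the genes, nothing can be read from the counts: 5 probe sets were past the threshold as higher (3 of Acly, Scd1 1415965_at and Thrsp 1422973_a_at) and 2 as lower (Me1 1416632_at and Acacb), where 2.7% of all probe sets were called higher and 2.17% lower. The median of the 20 was 0.83, against 0.06 over all probe sets. The groups did not overlap for 7 of the 20, against 8.89% of all probe sets, which is likewise a description. With the 3′ to 5′ ratio held as a covariate, the old CR against old difference of Acly 1451666_at was 1.84 (SE 0.53). Without the covariate it was 1.85 (SE 0.24). For Acly 1425326_at it was 1.16 (SE 0.48) with and 2.46 (SE 0.29) without the covariate. For Fasn it was 2.62 (SE 1.28) with and 1.99 (SE 0.60) without. Other members moved either way: Scd1 1415965_at was 1.6 with and 2.86 without, and Thrsp 1424737_at 2.13 with and 1.14 without.

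**Figure D3:**
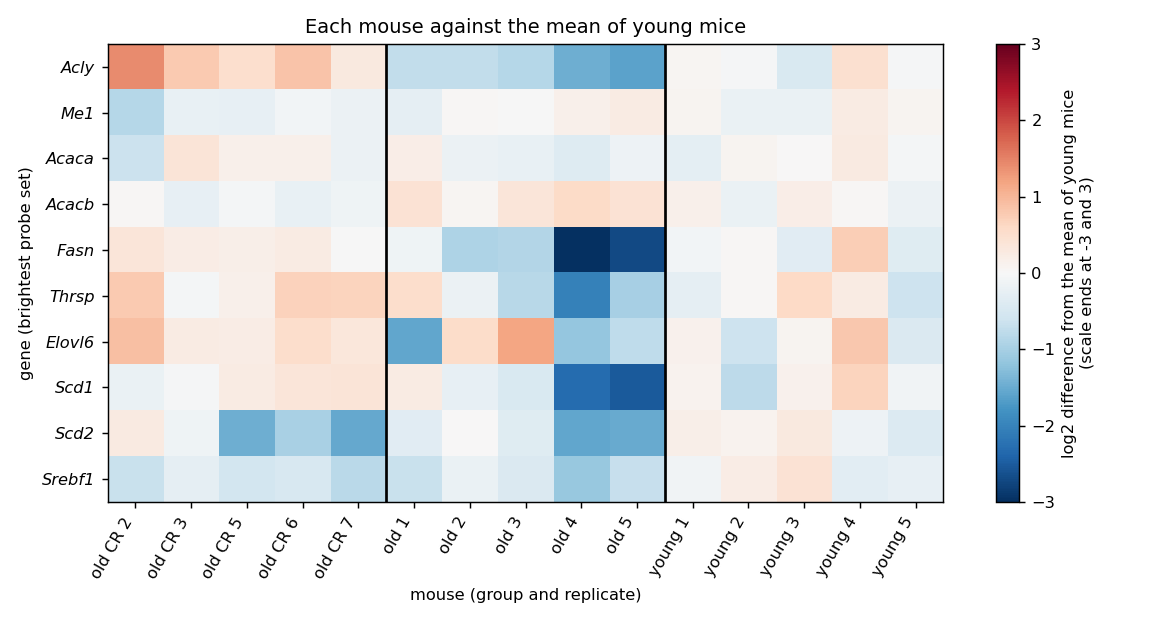
Log2 difference of each of the 15 mice (columns, by group and replicate) from the mean of young mice, for the brightest probe set of each gene (rows); red is above and blue below, and colors end at -3 and 3. Old mice 4 and 5 are blue for Acly, Fasn, Thrsp, Elovl6, Scd1, Scd2 and Srebf1 and a paler blue for Acaca, but not blue for Me1 or Acacb.

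The variation between mice of a group was then set against that of Adipoq, the adipocyte hormone adiponectin, since adipocytes within or around a muscle make fatty acids. Adipoq read 1807, 813.4, 1735, 2199 and 2677 in old CR mice, against 6196, 4868, 3134, 2406 and 4112 in old mice, and 2134, 1886, 4354, 3696 and 1794 in young mice. Its mean was thus highest in old mice, where the Acly, Fasn and Scd1 means were lowest, and the old against young difference of Adipoq was 0.60 (SE 0.36, adjusted p = 0.44). Cidec, a lipid droplet protein, averaged 170.8 ± 56.5 in old CR, 325.7 ± 146 in old and 275.5 ± 141 in young mice, and the hormone leptin (Lep) averaged 52.2 ± 31.9, 281 ± 280 and 102.1 ± 74.7 in the same groups (SD, n = 5 each). The 10 measured adipocyte markers of 13 listed summed to 9455.5 to 14128 in old CR, 12430 to 19528 in old and 8546.4 to 15660 in young mice, and none of these genes was called between old and young mice (limma). At an unadjusted p under 0.05 there was 1, the hormone resistin (Retn), which was lower in old mice. Retn averaged 1022 ± 248 in old CR, 700.1 ± 248 in old and 1065 ± 344 in young mice, and Aqp7 (71.2, 43.4 and 64.6) and Lipe (503.8, 482.9 and 577.3) also had their lowest means in old mice, so the list did not move one way. Fabp4 was the largest part of each sum and averaged 8201 in old CR, 7688 in old and 6778 in young mice, so the sums mostly follow its probe set. Cebpa averaged 515.1, 1065 and 767.3 in the same groups. It was the 1 marker past the threshold in old CR against old mice (-1.08), where 2.17% of all probe sets were called lower. Plin1, Cfd and Adrb3 were not analysed here.

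After removal of the group means, Thrsp varied together with Adipoq over the 15 mice (Pearson r = 0.80, permutation p = 7e-05, adjusted over the 10 genes 0.0007; Spearman rho = 0.85, permutation p = 0.00025, adjusted 0.0025). Without the 2 mice farthest from the median in Adipoq, r was 0.77. Each gene was read by its brightest probe set (1424737_at for Thrsp), and its other probe sets were not tested against Adipoq. Scd1 had r = 0.51 (permutation p = 0.0479, adjusted 0.24; rho = 0.62, permutation p = 0.0191, adjusted 0.0954) and r = 0.43 without those 2 mice. Fasn had r = 0.41 (permutation p = 0.121, adjusted 0.403; rho = 0.29, permutation p = 0.32, adjusted 0.867). Acly had r = 0.08 (permutation p = 0.798; rho = 0.13, permutation p = 0.669). Of the 10 genes, Thrsp alone passed after adjustment in this setting. By rank, Scd1 passed as well with median centering (rho = 0.67, permutation p = 0.00718, adjusted 0.0359) and against the median of the adipocyte markers (rho = 0.69, permutation p = 0.00808, adjusted 0.0404).

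**Figure D4:**
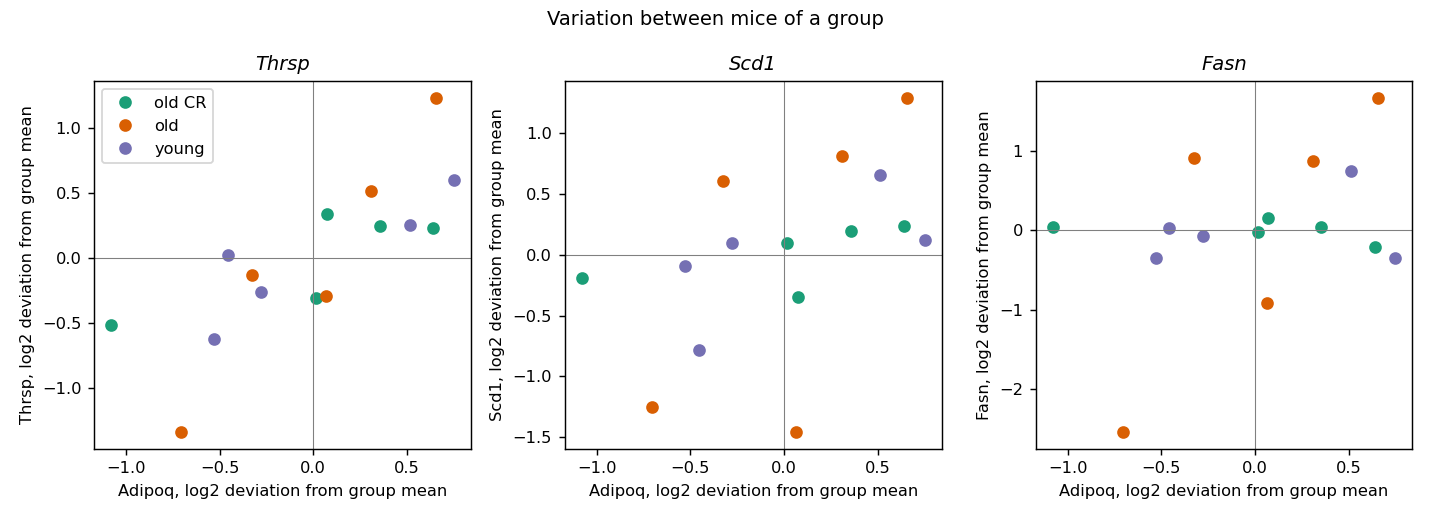
Log2 deviation from the group mean of Thrsp, Scd1 and Fasn (y axes, brightest probe set of each gene) against that of Adipoq (x axis) in 5 old CR, 5 old and 5 young mice. Over the 15 mice Thrsp is higher where Adipoq is higher (r = 0.80), and for Fasn (r = 0.41) old mouse 5 lies low at an average level of Adipoq.

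The members were also compared with each other in this way, over 45 pairs, a test chosen after seeing the data. No pair passed after adjustment by Pearson r, and Acly with Fasn passed by rank (rho = 0.85, permutation p = 0.00032, adjusted 0.0144; r = 0.68, permutation p = 0.00247, adjusted 0.111; r = 0.73 without the 2 mice farthest from the median in Acly). Fasn with Scd1 had r = 0.84 (permutation p = 0.0202, adjusted 0.151; rho = 0.69, permutation p = 0.0445, adjusted 0.286; r = 0.77 without the 2 mice farthest in Fasn). Me1 ran against Scd2 (r = -0.67, permutation p = 0.00601, adjusted 0.135; rho = -0.66, permutation p = 0.0111, adjusted 0.137; r = -0.53 without the 2 mice farthest in Scd2).

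Outside the pathway, the 5 genes whose levels were most like those of Acly 1451666_at over the 15 arrays, among 7180 genes ranked, were Bcat2, Sgcb, Rhot2, Mrpl2 and Chchd3, with r of 0.95, 0.94, 0.93, 0.92 and 0.91. These values include the differences between groups and are a description. Bcat2, the mitochondrial enzyme that starts the breakdown of branched-chain amino acids, averaged 701.6 ± 131 in old CR, 361.6 ± 70.6 in old and 541.8 ± 107 in young mice (SD, n = 5 each). Sgcb encodes a sarcoglycan of the muscle membrane, Rhot2 a mitochondrial GTPase, Mrpl2 a mitochondrial ribosomal protein and Chchd3 a protein of the inner mitochondrial membrane. With group means removed, r with Acly was 0.84 for Bcat2 and 0.56 for Chchd3.

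Neighboring pathways were read from 5 lists of genes, each gene by its brightest probe set. None of the 79 measured genes was called between old and young mice or between old CR and young mice (limma). At an unadjusted p under 0.05 there were 18 genes (22.8%) in old against young and 8 (10.1%) in old CR against young, where 15.5% and 12.1% of all probe sets reached that level. The shares of all probe sets, here and in the next paragraph, include dim ones. The list genes are each read by their brightest probe set, so the shares are not like for like. Closest to the threshold was Fdps, which makes farnesyl pyrophosphate for cholesterol synthesis: it read 444.6, 425.3, 403.7, 479.8 and 556.9 in old CR mice, against 191.7, 225.5, 221.7, 237.5 and 250.8 in old mice and 405.3, 317.1, 299.8, 463.6 and 453.1 in young mice. All old mice lay below all others, as for Acly, and the old against young difference was -0.76 (SE 0.15, adjusted p = 0.0539). Gpat4, an acyltransferase of triglyceride synthesis, differed between old and young mice by -0.68 (adjusted p = 0.0714).

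In the comparison of old CR with old mice, which chose the members, 7 of the 79 genes were past the threshold, where 4.87% of all probe sets were. The 4 that were higher were Tkt, the pentose phosphate transketolase (1.33), Pcx, the pyruvate carboxylase (0.78), Fdps (1.03) and the sterol regulator Srebf2 (0.64). The 3 that were lower were Mlxip, a glucose-responsive transcription factor (-0.84), Mlycd, the decarboxylase that removes malonyl-CoA (-0.80), and the phosphatidate phosphatase Lpin1 (-0.64). By list, 2 of 9 genes of acetyl-CoA and NADPH supply, 0 of 17 of elongation, desaturation and acyl-CoA synthesis and 3 of 19 regulators were past the threshold. So were 1 of 15 of triglyceride synthesis and lipid droplets and 1 of 19 of cholesterol synthesis. With lists of this size, 1 gene is close to the share of 4.87%. At an unadjusted p under 0.05 (limma) there were 3 of the 17 genes of elongation, desaturation and acyl-CoA synthesis. Over the 5 lists there were 23 of 79 (29.1%), where 21.9% of all probe sets reached that level.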

How the data were processed

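The deposited values are linear intensities, 1 for each probe set on each array. Per the methods, each array was scanned more than once and the authors took the average, and the submitters' processing notes name MAS5 and RMA. The arrays share 1 trimmed mean (2% trimmed at each end) and differ in their medians, as scaling array by array gives, so the intensities were used as deposited, converted to log2 with no pseudocount, and not normalized further. Tests excluded 64 control probe sets. The members and gene lists were chosen with earlier results of these data known.

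Tests were run with limma 3.58.1 on 22626 probe sets (R 4.3.3; lmFit, contrasts, eBayes), with the 3 groups in 1 fit, and p-values were adjusted by Benjamini and Hochberg over all of them. On simulated data for old against young with 22626 probe sets, it recovered 48 of 100 changes of 2-fold and 80 of 100 of 4-fold. The methods' empirical Bayes model was not run. Genes were matched through the platform annotation, which gave 1 symbol for 20393 probe sets. Named were all probe sets of the 10 genes, up to 4 genes of smallest adjusted p per pathway list, and the 5 genes most correlated with Acly. Adipocyte genes named were Adipoq, Cidec and Lep, and also Retn, Aqp7, Lipe, Fabp4 and Cebpa. Plin1 was planned as well but was not matched to a probe set. Relations used 100000 permutations within groups, two-sided (SciPy 1.17.1, Python 3.11.15). Promoter windows came from RefSeq tables. Alternatives were the 11313 brighter probe sets, a floor of 50, median centering, quantile normalization, fits of 2 groups, a variance trend with robust eBayes, the replicate number as a block, the 3′ to 5′ ratio held as a covariate, an adjusted p under 0.10, and leaving out each array; for lists also any probe set of a gene, for Adipoq the median of the adipocyte markers, and for motifs a window of 100 bases. For pairs of members, median centering and leaving out young mouse 3 were added after seeing the data. The number of arrays limits the precision. Nothing in the labels says more of the replicates than that they are separate mice.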

Additional observations from a re-analysis of the deposited data

Results flagged for a closer look

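In 60 groups of 5 mice (20 probe sets, 3 groups), a single mouse lay far from the other 4 by Dixon's gap test in 2, where chance flags about 1 in 20 groups. Scd2 1415824_at read 131.7 in young mouse 3, the array that correlated better with old than with young arrays, against 403.6 to 531.2 in the other young mice. Me1 1430307_a_at read 3332 in old CR mouse 2, against 5098 to 5661 in the other old CR mice. No explanation was tested.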

How the results depend on the processing

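In old against young mice, the count of member probe sets called, 1 as reported, was 5 among the brighter probe sets, 4 with a variance trend and robust eBayes, 2 at an adjusted p under 0.10, and 0 with only the 2 groups in the fit or with the 3′ to 5′ covariate. Of all 11313 brighter probe sets, 5.12% were then called and 2.98% as lower, against 0.265% and 0.146% in the reported fit. Such shares are not given for the other processing alternatives. Leaving out single mice gave 0 to 5 member calls, with 0 without young mouse 1, 2, 4 or 5 or old mouse 4. There were 5 without young mouse 3, where 3.24% of all probe sets were called lower. The count of pathway list genes called there, 0 as reported, was 3 among the brighter probe sets, 2 with the floor of 50, 2 with the variance trend, 2 at an adjusted p under 0.10, and 0 to 4 when single mice were left out, with 4 without young mouse 3. In old CR against old mice, the member count of 7 was 0 with the covariate and 3 to 8 when single mice were left out, being 3 or 4 without old mouse 2, 3, 4 or 5 or old CR mouse 5, 6 or 7. The list count of 7 was 11 among the brighter probe sets and at an adjusted p under 0.10, 0 with the covariate, and 2 to 8 when single mice were left out, being 2 to 4 without the same 7 mice. Some small differences turned in sign: old against young, Elovl6 1417404_at to 0.16 with the covariate and Me1 1430307_a_at over -0.02 to 0.11 when single mice were left out; old CR against young, Acaca to 0.07 with the covariate and over -0.13 to 0.13 without single mice, Scd1 1415964_at over -0.04 to 0.32, and Scd1 1415965_at to -0.18 with the covariate and over -0.28 to 0.66. The cause was not tested. The count of members that varied with Adipoq by rank, 1 as reported, was 2 with median centering and 2 against the median of the adipocyte markers. Counts for old CR against young, for Adipoq by Pearson r and for motifs stayed within 1.5 times the reported values under the alternatives run.

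The replicate numbers are shared in part by the groups, but same-numbered mice did not vary together (r of -0.27 to 0.08 in 11 pairs). The labels do not say what the numbers stand for, and low correlations cannot exclude a link between same-numbered mice. With the replicate number as a block, 0 member probe sets were called in old against young mice, in old CR against old mice and in old CR against young mice, 0 list genes were called in old CR against old mice, Acly 1425326_at kept its difference of -1.92 (adjusted p = 0.219), and Thrsp 1422973_a_at turned to -0.07 in old CR against young mice.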
